A study of Sus scrofa with 24 samples.

Results

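IGF1, EGF and MYF6 are 3 genes of growth and muscle identity, described here in the longissimus dorsi (loin muscle) of 24 pigs on 4 dietary fats. Members were all probe sets of the array whose platform gene symbol is IGF1, EGF or MYF6. These were 3 of the 6765 named genes, with 6 probe sets among the 23999 that are not controls: 3 for IGF1, 1 for EGF and 2 for MYF6. The genes were proposed with results of these data in view, EGF and MYF6 being genes that differ between the sexes, so the levels and differences of the 3 genes are given as a description with no test. The pigs were a cross of Landrace, Large White and Duroc and weighed about 71 kg at about 130 days of age when allotted to pens. Their feed held 3.0% of one fat, either beef tallow or the oil of coconut, olive or soybean. Each fat had 3 gilts (young females) and 3 barrows (castrated males), so that all 8 groups shared the breed, the muscle and the fat level. RNA was measured on 1 array per pig, and pigs are numbered as in the sample titles (gilts 1 to 12, barrows 13 to 24). Each pen held 3 pigs and each fat had 6 pens. The sources used here do not tie a sampled pig to a pen, and pigs were taken as independent.

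Insulin-like growth factor 1 (IGF1) is a circulating and local growth factor, made in liver under growth hormone and also in muscle, that acts through the receptor IGF1R and the AKT and mTOR kinases to raise protein synthesis in muscle fibres. Epidermal growth factor (EGF) is cut from a membrane-bound precursor and binds the receptor EGFR, a tyrosine kinase that feeds the MAP kinase pathway. MYF6, also called MRF4, is the member of the myogenic regulatory factors, with MYF5, MYOD1 and MYOG, that is best known from differentiated adult fibres, where it binds DNA as a partner of E proteins.

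Signals are the authors' linear intensities, and log2 values are log2(signal + 1). Testing was limited to probe sets whose mean log2 value reached the 40th percentile (signal 86.3), 14399 in number. Of the 6 probe sets, 4 passed this filter: the EGF probe set, 1 of MYF6 and 2 of IGF1. Those of IGF1 are called the first, the second and the third in the order of their mean. The mean of EGF stood at the 90.8th percentile of all probe sets and that of MYF6 at the 96.5th. The first and second of IGF1 stood at percentiles 63.5 and 50.3. Array medians ranged from 139 to 174. The mean correlation of an array with the others was lowest for pigs 11, 16 and 12 (0.912, 0.915 and 0.917). Of the 12 markers of skeletal muscle fibres listed for this work, 8 were on the array and all 8 passed the filter. Their summed signal lay between 209056 and 372421 in gilts and between 243330 and 353496 in barrows. In tissue samples like these, fewer cells of a type and less RNA per cell cannot be told apart.

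EGF was high in barrows and low in gilts. With beef tallow its signal was 340, 741 and 1255 in the 3 gilts and 2279, 2891 and 3488.5 in the 3 barrows. With coconut oil it was 534, 915 and 957 in gilts and 2615, 3994 and 4184 in barrows. With olive oil it was 608, 707 and 1533 in gilts and 2432, 2810 and 4388 in barrows. Within each of these fats every barrow lay above every gilt. How many of all tested probe sets did so with 3 pigs of each sex was not counted, so nothing is read from it. With soybean oil the signal was 613, 831 and 1740 in gilts and 1747, 2744 and 3282 in barrows, so that gilt 9 and barrow 13 nearly met. Over all fats the highest gilt (1740) lay just below the lowest barrow (1747), and the sexes did not overlap. Among the 14399 tested probe sets, 11 had all barrows above all gilts (0.0764% of them), EGF included; since EGF was chosen on this comparison, nothing is read from that share.

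The mean log2 signal of EGF was 11.54 ± 0.39 in barrows and 9.67 ± 0.66 in gilts (SD, n = 12). Barrow minus gilt was 1.86 ± 0.24 on the log2 scale (SE of the fit), a 3.64-fold difference. It was the 7th highest such difference of the 14399, a rank from which nothing is read for the same reason. By fat the difference was 2.18 with coconut oil, 2.06 with beef tallow, 1.83 with olive oil and 1.38 with soybean oil, each with an SE of 0.47. All 4 differences were positive. The interaction of fat and sex was called by limma for 0 of 14399 probe sets (0.00%; 895 or 6.22% at an unadjusted p under 0.05). Leaving out any 1 pig kept the EGF difference between 1.74 (without pig 8) and 1.97 (without pig 2).

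**Figure D1:**
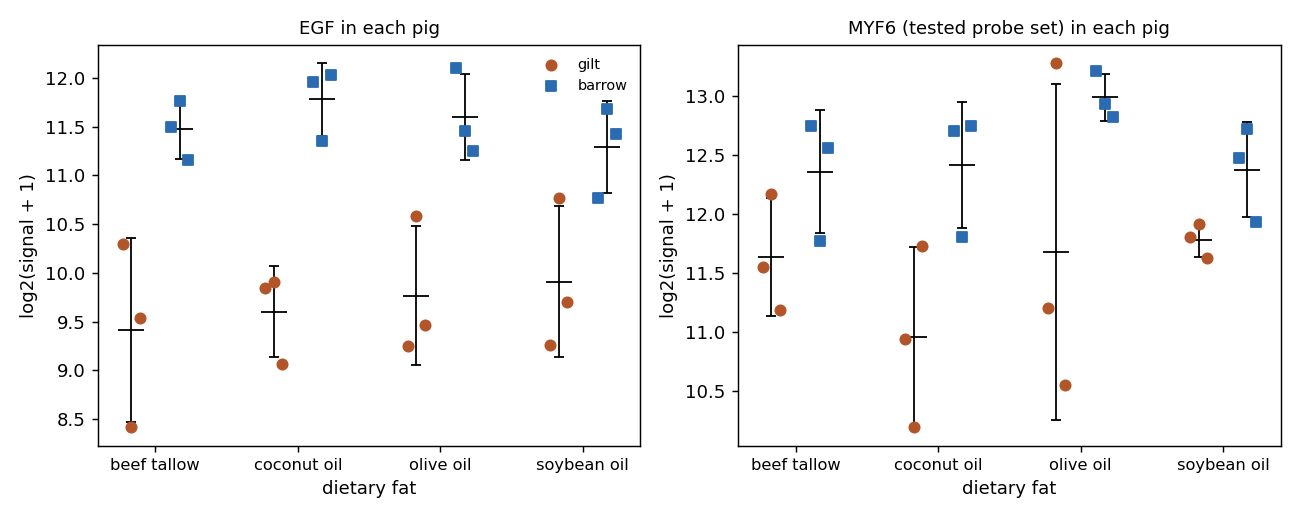
Log2 signals of EGF (left) and of the tested MYF6 probe set (right) in each of the 24 pigs, by dietary fat; circles are gilts, squares are barrows, and lines are the mean and SD of the 3 pigs of a group. For EGF the highest gilt (signal 1740) lies just below the lowest barrow (1747); for MYF6, gilt 7 with olive oil (9930) is the highest of all pigs.

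Between the fats EGF differed little. Its mean log2 signal was 10.69 ± 1.25 with coconut oil, 10.68 ± 1.14 with olive oil, 10.60 ± 0.95 with soybean oil and 10.44 ± 1.29 with beef tallow (SD, n = 6), the spread being mostly that of the sexes. The differences between pairs of fats lay between -0.09 and 0.25, each with an SE of 0.33. In barrows the order was coconut oil (11.78), olive oil (11.60), beef tallow (11.47) and soybean oil (11.29). In gilts it was soybean oil (9.91), olive oil (9.77), coconut oil (9.60) and beef tallow (9.42). No neighbours in either order differed by more than the SD of their groups, which was 0.31 to 0.47 in barrows and 0.47 to 0.95 in gilts. Gilts thus spread more widely than barrows. The highest gilt was 5.11 times the lowest, against 2.51 times in barrows.

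The EGF family list held few measured partners. Apart from EGF, 37 genes were listed, 15 had a probe set with 1 symbol and 13 were tested. Against gilts, 1 of the 13 fell in barrows and 0 rose (limma, Benjamini-Hochberg adjusted p under 0.05), beside 4.77% of all tested probe sets called in either direction and 2.51% called lower. The median difference of the 13 genes was -0.03, and that of all tested probe sets -0.02. The gene that fell was PTPN1, the tyrosine phosphatase PTP1B, which removes phosphate from the insulin receptor and from EGFR. Its signal had a lowest, median and highest value of 285, 477 and 912 in barrows and of 527, 942 and 1409 in gilts. The groups overlapped, and 1 of 12 barrows lay above the mean of the gilts. The difference was -0.92 ± 0.17 (limma adjusted p = 0.00590), a 1.89-fold difference. The other 2 probe sets of PTPN1 lay below the filter.

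EGFR, the receptor of EGF, had a lowest, median and highest signal of 702, 965 and 1455 in barrows and of 757, 1156 and 1466 in gilts. Its difference was -0.18 ± 0.12 and did not pass (limma adjusted p = 0.395). HBEGF, a heparin-binding ligand of the same receptor, differed by 0.03 ± 0.25 (limma adjusted p = 0.959). The ligands TGFA and AREG did not pass the filter. ERBB2, ERBB3, NRG1 and NRG4 were not analysed here, as no probe set with 1 symbol matched them. Over the 24 pigs the log2 signals of EGF and EGFR had r = -0.38, with -0.32 in gilts and -0.29 in barrows.

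Genes whose pattern over the 24 pigs was most like that of EGF were ranked by Pearson's r among the 5344 other named genes with a tested probe set. The points share the array and its scaling, and the sexes form separate clusters, so r is given with its value within each sex. The 5 highest were SLC37A4, the transporter of glucose 6-phosphate into the endoplasmic reticulum (r = 0.93, with 0.65 in gilts and 0.84 in barrows), ZFX, an X-linked zinc finger factor (0.92, with 0.60 and 0.48), PAPOLA, a poly(A) polymerase (0.91, with 0.80 and 0.40), ZC3H11A, a zinc finger protein of RNA export (0.90, with 0.53 and 0.65) and PRKAA2, a catalytic subunit of the AMP-activated kinase (0.89, with 0.79 and 0.64). SLC37A4 had a median signal of 849 in gilts and 2156 in barrows, and PRKAA2 one of 1601 in gilts and 2873 in barrows. ZFX had one of 219 in gilts and 669 in barrows. What its probe set reads in each sex was not tested. SLC37A4, PRKAA2 and ZFX were picked by their r with EGF over both sexes, so nothing is read from their difference between the sexes. The 3 lowest were DHRS4, a short-chain dehydrogenase (r = -0.90), C17H20orf27 (-0.88) and TXLNG (-0.87). Within barrows r was -0.46, -0.32 and -0.13 for these 3. Deviations from the 8 group means, which hold no difference of sex or fat, gave r of 0.75, 0.64, 0.76, 0.56 and 0.78 for the 5 highest and of -0.74, -0.58 and -0.40 for the 3 lowest, in the order named.

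MYF6 was also higher in barrows, with overlap. With beef tallow its tested probe set read 2322, 2989 and 4602 in gilts and 3482, 6028 and 6864 in barrows. With coconut oil it read 1174, 1967 and 3386 in gilts and 3565, 6664 and 6849 in barrows. With olive oil it read 1501, 2356 and 9930 in gilts and 7209, 7822 and 9462 in barrows. Gilt 7, fed olive oil, was the highest of all 24 pigs and stood apart from the other 11 gilts, which lay at or below 4602. With soybean oil the signal was 3150, 3564 and 3856 in gilts and 3898, 5670 and 6748 in barrows. The sexes did not overlap with coconut oil and soybean oil, and overlapped with beef tallow and olive oil.

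The mean log2 signal of MYF6 was 12.53 ± 0.46 in barrows and 11.51 ± 0.80 in gilts (SD, n = 12). Barrow minus gilt was 1.02 ± 0.26 (SE), a 2.03-fold difference, and 12 of 12 barrows lay above the mean of the gilts. It was the 31st highest difference of the 14399 probe sets. Nothing is read from this rank, since MYF6 was proposed as a gene that differs between the sexes. By fat the difference was 1.46 with coconut oil, 1.31 with olive oil, 0.72 with beef tallow and 0.59 with soybean oil, each with an SE of 0.53. Without pig 7 the difference over all fats was 1.22, and without pig 12 it was 0.88.

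**Figure D2:**
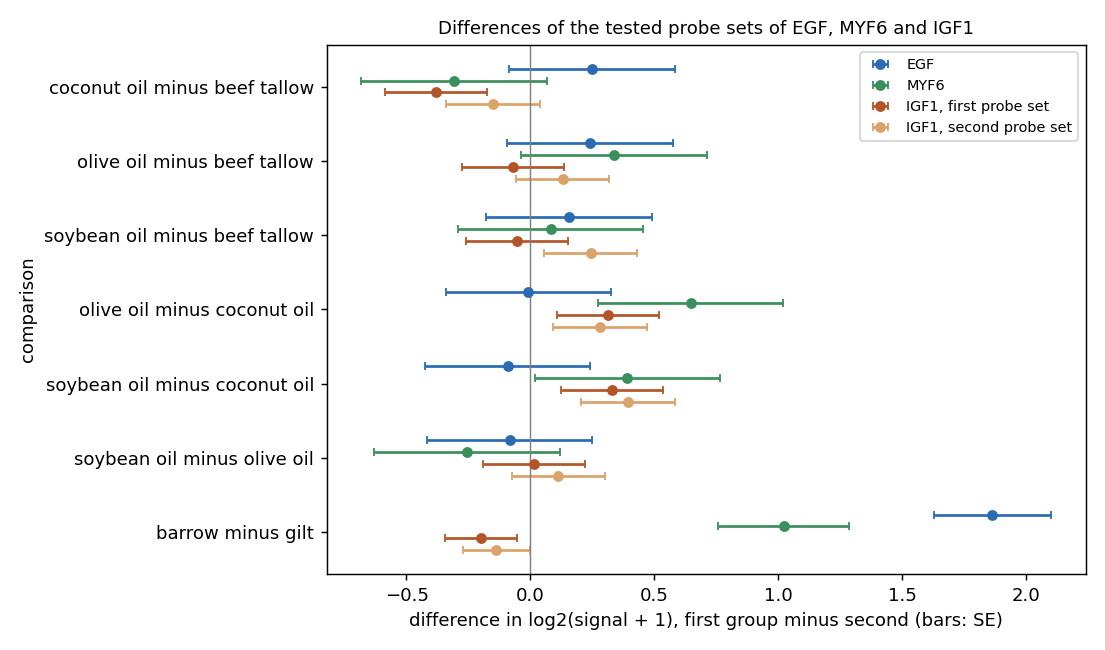
Differences in log2 signal of the 4 tested probe sets of EGF, MYF6 and IGF1 for the 6 pairs of fats and for barrow minus gilt; points are the differences, first group minus second, and bars their SE. EGF (1.86) and MYF6 (1.02) stand to the right in the barrow minus gilt row, while both IGF1 probe sets lie left of 0 there (-0.20 and -0.14).

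Over the fats MYF6 had means of 12.33 ± 1.16 with olive oil, 12.08 ± 0.42 with soybean oil, 11.99 ± 0.60 with beef tallow and, lowest, 11.69 ± 0.99 with coconut oil (SD, n = 6). Olive oil minus coconut oil was the widest pair at 0.65 ± 0.37, with 0.25 without pig 7 and 0.93 without pig 12. All other pairs lay within 0.40 of 0, and no neighbours in the order differed beyond their spread. In barrows olive oil (12.99 ± 0.20) stood above coconut oil (12.41 ± 0.53), soybean oil (12.37 ± 0.40) and beef tallow (12.36 ± 0.52, all SD with n = 3). The 3 barrows fed olive oil lay above the other 9, a split whose share over all tested probe sets was not counted. In gilts the order was soybean oil (11.78), olive oil (11.68), beef tallow (11.63) and coconut oil (10.96). Olive oil was thus the highest group in barrows and not in gilts. Of all tested probe sets 0 were called by limma for the interaction of fat and sex. With 3 pigs a group this says little about MYF6, and nothing is read from it. The other MYF6 probe set lay below the filter signal in 24 of 24 pigs, between 3.22 and 69.9, so no level or direction was taken from it. Its barrow minus gilt difference was -0.04 ± 0.42.

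Of the 36 other myogenic factors and partners listed, 15 were on the array and 12 tested. Between barrows and gilts 0 of the 12 passed in limma, beside the 4.77% of all tested probe sets, and 5 had an unadjusted p under 0.05, beside 21.1% of all. MYOD1, which commits cells to the muscle lineage, had a median signal of 474 in barrows and 666 in gilts. Its difference was -0.41 ± 0.15, the opposite sign to that of MYF6, and it did not pass (limma adjusted p = 0.118). MYF5, a factor of muscle precursors, differed by 0.38 ± 0.25 (limma adjusted p = 0.417). MEF2A, a transcription factor that acts with the myogenic factors, differed by 0.27 ± 0.10 (limma adjusted p = 0.128). MYF6 and MYOD1 had r = 0.27 in gilts, 0.34 in barrows and 0.27 for deviations from the group means. MYF6 and MYF5 had r = 0.0048 in gilts, -0.20 in barrows and -0.03 for these deviations. MYOG, MEF2C and PAX7 had no matching probe set and were not analysed here.

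With coconut oil against beef tallow, 1 of these 12 genes rose and 0 fell, beside 1.12% of all tested probe sets called in either direction, 0.257% higher and 0.861% lower. It was MEF2A. Its signal ran from 1341 over a median of 1525 to 2111 with beef tallow, and from 1806 over 2359 to 2906 with coconut oil. Each of the 6 coconut oil pigs exceeded the beef tallow mean, and the groups overlapped. The difference was 0.58 ± 0.14 (limma adjusted p = 0.0483), and the call was lost in 19 of the 24 fits that left out 1 pig and in 3 of the 7 other settings. The same pigs gave MYF6 a difference of -0.31 ± 0.37. The median of the 12 genes was -0.41, against -0.04 for all tested probe sets.

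The genes most like MYF6 were HDGF, a growth factor that binds heparin (r = 0.77), NMNAT1, an enzyme of nuclear NAD synthesis (0.74), EIF2S2, a subunit of translation initiation factor 2 (0.72), TPI1, the triose phosphate isomerase of glycolysis (0.71), and GYG1, glycogenin, the primer of muscle glycogen (0.71). Deviations from the group means gave r of 0.65, 0.58, 0.45, 0.46 and 0.72 in this order. Within gilts r was 0.57, 0.79, 0.52, 0.49 and 0.60, and within barrows 0.72, 0.31, 0.41, 0.23 and 0.47. TPI1 had a median signal of 17219.5 in gilts and 25085 in barrows. The 3 lowest were PFKL, the liver type of phosphofructokinase (r = -0.75), SLC22A3, a transporter of organic cations (-0.73), and CYP2B22, a cytochrome P450 (-0.72). Within gilts these were -0.48, -0.39 and -0.63, and within barrows -0.66, -0.80 and -0.56. Deviations from the group means gave -0.59, -0.49 and -0.60. PFKL had a median signal of 678 in gilts and 356 in barrows. TPI1 and PFKL were picked by their r with MYF6 over both sexes, so nothing is read from their difference between the sexes.

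EGF and MYF6 were compared in the same pigs. Within gilts their log2 signals had r = 0.17 and within barrows r = 0.26, and deviations from the 8 group means had r = 0.17. No value over all pigs is given, since the sexes form separate clusters. Gilt 7 had the highest MYF6 of all pigs, and its EGF (1533) was below that of gilt 9 alone among gilts (1740).

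**Figure D3:**
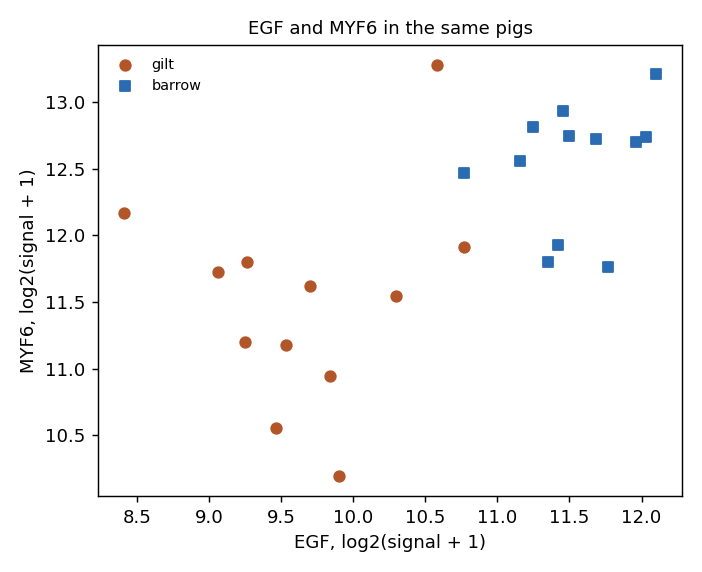
Log2 signal of EGF (x axis) against that of MYF6 (y axis) in the 24 pigs; circles are gilts and squares barrows. The sexes form separate clouds along the x axis, and within each the relation is weak (r = 0.17 in gilts and 0.26 in barrows).

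Markers of other cell types are given beside the difference between the sexes, from lists chosen with earlier results of these data known. For barrow minus gilt, 4.77% of all tested probe sets were called in either direction and 2.51% lower, with a median difference of -0.02. Of 6 tested adipocyte markers 1 fell in barrows, the lipase LIPE, and 5 of the 6 were lower (median difference -0.66). The summed signal of the adipocyte markers ran from 8167 to 43468 in gilts and from 6385 to 28989 in barrows. All 8 endothelial markers were lower in barrows (median -0.18), of which 0 passed. Fibroblast, leukocyte and muscle fibre markers had medians of 0.07, 0.12 and -0.05, with 0 of 7, 0 of 6 and 0 of 8 called. EGF had r = -0.48 with the mean of the adipocyte markers over the 24 pigs, and MYF6 had r = -0.41. Within gilts these were -0.43 and -0.18, and within barrows -0.18 and -0.39. EGF had r = -0.59 with the mean of the endothelial markers, with -0.01 in gilts and -0.71 in barrows. The 2 tested Schwann cell markers had a median difference of -0.71, and 0 passed. S100B, which is among them, differed by -0.26 ± 0.17, so the 2 were not alike. The part of adipocyte, endothelial and Schwann cells in the difference between the sexes was not tested.

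IGF1 differed less between the sexes than EGF or MYF6 did, and its lowest values came with coconut oil. With beef tallow its first probe set read 205, 374 and 398 in gilts and 233, 340 and 372 in barrows. With coconut oil it read 175, 293 and 314 in gilts and 166, 252 and 272 in barrows. With olive oil it read 312, 323 and 364 in gilts and 238, 252 and 306 in barrows. The 3 gilts fed olive oil lay above the 3 barrows fed olive oil, a split whose share over all tested probe sets was not counted. With soybean oil it read 304, 334 and 356 in gilts and 215, 250.3 and 370.5 in barrows. The lowest pigs of all were barrow 15 and gilt 6, both fed coconut oil.

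Log2 means of this probe set were 8.28 ± 0.40 with beef tallow, 8.23 ± 0.31 with soybean oil, 8.22 ± 0.23 with olive oil and 7.90 ± 0.39 with coconut oil (SD, n = 6). The first 3 lay within 0.07 of each other. Coconut oil minus beef tallow was -0.38 ± 0.21 (SE), a 1.30-fold difference. Olive and soybean oil minus coconut oil were 0.31 ± 0.21 and 0.33 ± 0.21; these 3 comparisons share the pigs fed coconut oil. In each of the 3, the groups overlapped. In gilts the coconut oil minus beef tallow difference was -0.31 ± 0.29 and in barrows -0.46 ± 0.29. Leaving out any 1 pig kept it between -0.53 (without pig 2) and -0.25 (without pig 6).

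The second probe set of IGF1 ran from 105 (pig 23, coconut oil) to 224 (pig 9, soybean oil) and had means of 7.45 ± 0.36 with soybean oil, 7.34 ± 0.20 with olive oil, 7.21 ± 0.34 with beef tallow and, lowest, 7.06 ± 0.34 with coconut oil (SD, n = 6). Coconut oil was lowest on both probe sets, and the order of the other fats differed between them. Coconut oil minus beef tallow was -0.15 ± 0.19 here, with 0.11 ± 0.27 in gilts and -0.41 ± 0.27 in barrows. It was -0.27 without pig 16, -0.06 without pig 21 and -0.03 after quantile normalization or with each array centred on its median. Soybean oil minus coconut oil was 0.39 ± 0.19. Barrow minus gilt was -0.14 ± 0.13 on this probe set and -0.20 ± 0.15 on the other, with overlap of the sexes on both. Between the 2 probe sets the log2 signals had r = 0.51 over the 24 pigs, with 0.68 in gilts and 0.28 in barrows. The third probe set of IGF1 lay below the filter signal in 18 of 24 pigs, between 12.2 and 120 in all, and had r = -0.29 with the first and -0.08 with the second.

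**Figure D4:**
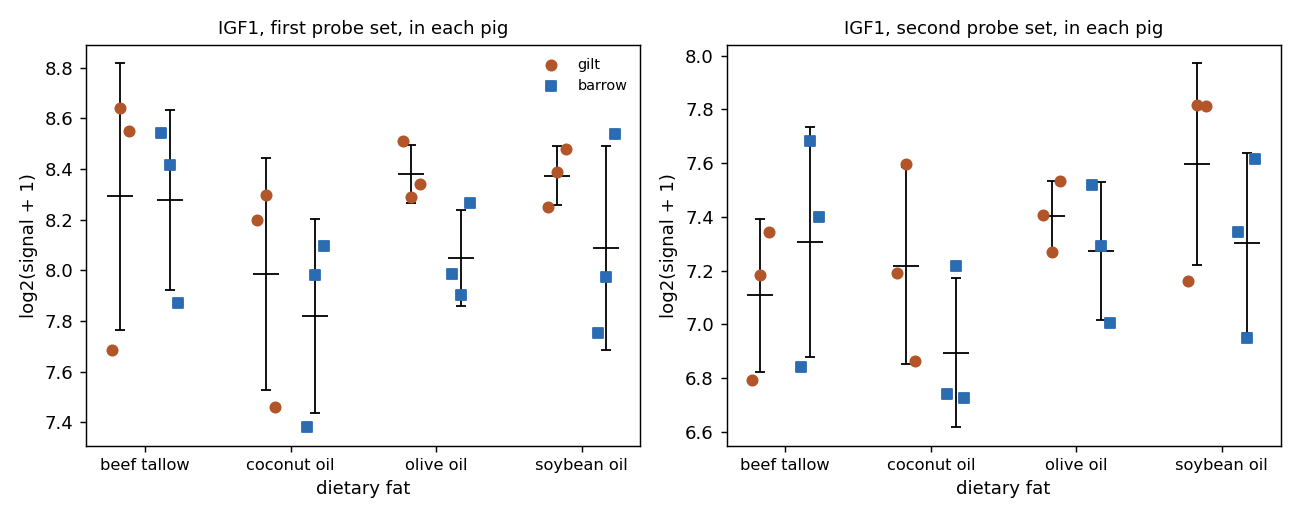
Log2 signals of the first (left) and second (right) IGF1 probe sets in each pig, by dietary fat; circles are gilts, squares are barrows, and lines are the mean and SD of the 3 pigs of a group. On both, the barrows fed coconut oil have the lowest group mean (7.82 and 6.89), and the groups overlap.

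The IGF and growth hormone list held 42 other genes, of which 26 were on the array and 20 tested. In 7 of 7 comparisons 0 of the 20 passed in limma. Over all tested probe sets 1.12% passed between coconut oil and beef tallow, 4.77% between barrows and gilts and 0.00% in the other 5 pairs of fats. At an unadjusted p under 0.05, coconut oil against beef tallow gave 6 of the 20 genes, beside 19.8% of all tested probe sets, and barrow against gilt gave 2, beside 21.1%. Olive oil against beef tallow gave 4 (6.44% of all), soybean oil against beef tallow 2 (3.46%), olive against coconut oil 4 (8.85%), soybean against coconut oil 3 (13.0%) and soybean against olive oil 1 (3.18%). The median of the 20 genes was 0.14 in the coconut oil against beef tallow comparison and -0.07 between barrows and gilts.

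Among the ligands and their carriers, IGF2, the second insulin-like growth factor, was lower in value with coconut oil than with beef tallow. Its signal ran from 5291 over a median of 6855 to 8523 with coconut oil and from 8260 over 8693 to 11455 with beef tallow. The difference was -0.42 ± 0.14 and did not pass (limma adjusted p = 0.115). Of the other 8 tested probe sets of IGF2, 7 had the same sign. Olive oil minus beef tallow was -0.42 ± 0.14 and soybean oil minus beef tallow -0.38 ± 0.14 (limma adjusted p = 0.609 and 1.00), so that beef tallow was the high group of the 4. For IGF1 coconut oil was the low group.

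IGFBP6, a binding protein with a preference for IGF2, ran from 847 over a median of 1172 to 2022 with coconut oil and from 1286 over 2582 to 4015 with beef tallow. None of the 6 coconut oil pigs exceeded the beef tallow mean. The difference was -0.99 ± 0.27 (limma adjusted p = 0.0646). For olive oil minus coconut oil it was 0.81 ± 0.27 and for soybean oil minus coconut oil 0.58 ± 0.27 (limma adjusted p = 0.554 and 0.364). IGFBP6 had r = 0.63 with IGF1 over the 24 pigs, with 0.63 in gilts, 0.60 in barrows and 0.57 without the 2 pigs farthest from the IGF1 median. IGFBP5, the binding protein best known from muscle, differed by -0.43 ± 0.26 for coconut oil minus beef tallow (limma adjusted p = 0.369) and had r = 0.33 with IGF1.

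The receptors showed small differences. For coconut oil minus beef tallow IGF1R, the receptor of IGF1, differed by -0.19 ± 0.16, IGF2R, which clears IGF2, by 0.32 ± 0.17 and GHR, the growth hormone receptor, by 0.23 ± 0.17 (limma adjusted p = 0.556, 0.294 and 0.494). For barrow minus gilt the same genes differed by -0.16, -0.12 and 0.13 (limma adjusted p = 0.461, 0.603 and 0.590). INSR, the insulin receptor, did not pass the filter. IGFBP3 and IGFBP4 had no matching probe set and were not analysed here. In signalling, STAT5B, a factor that growth hormone activates, differed by 0.46 ± 0.15 for coconut oil minus beef tallow (limma adjusted p = 0.107). TSC2, an inhibitor of mTOR signalling, differed by -0.31 ± 0.10 for barrow minus gilt (limma adjusted p = 0.0728). GRB10, an adaptor that inhibits the insulin and IGF1 receptors, differed by -0.66 ± 0.22 and FOXO1, a factor that AKT inhibits, by -0.85 ± 0.29 for soybean oil minus coconut oil (limma adjusted p = 0.274 and 0.277).

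In the EGF family list the fats gave values that did not pass in any pair (0 of 13 each, limma), beside 1.12% of all tested probe sets called between coconut oil and beef tallow and 0.00% in each of the other 5 pairs. The smallest p for coconut oil minus beef tallow were those of LRIG1, a negative regulator of ERBB receptors, at 0.70 ± 0.20 and EGFR at -0.49 ± 0.17 (limma adjusted p = 0.0694 and 0.113). LRIG1 differed by -0.47 ± 0.20 for olive oil minus coconut oil and by -0.55 ± 0.20 for soybean oil minus coconut oil (limma adjusted p = 0.554 and 0.293). EGF itself had 0.25 ± 0.33, -0.01 ± 0.33 and -0.09 ± 0.33 in these 3 comparisons. Among myogenic genes CHRNA1, a subunit of the acetylcholine receptor at the nerve contact, differed by -1.53 ± 0.37 for olive oil minus beef tallow (limma adjusted p = 0.462). For soybean oil minus beef tallow it differed by -1.06 ± 0.37 and did not pass either. Its medians were 235 with olive oil, 348 with soybean oil and 459 with beef tallow, where the highest pig read 4089. MYF6 had 0.34 ± 0.37 for olive oil minus beef tallow.

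IGF1 was most like JUP, the junction protein plakoglobin (r = 0.77), C1QTNF5, a secreted relative of adiponectin (0.72), S100B, a calcium-binding protein used here as a Schwann cell marker (0.72), RBP4, the carrier of retinol (0.71), and NID2, a basement membrane protein (0.71). Deviations from the group means gave r of 0.67, 0.66, 0.61, 0.57 and 0.61 in this order. Without the 2 pigs farthest from the IGF1 median r lay between 0.60 and 0.67 for these 5 genes. The 3 lowest were MRPS35, a protein of the mitochondrial ribosome (r = -0.70), ALDH2, the mitochondrial aldehyde dehydrogenase (-0.68), and PKM, the pyruvate kinase of muscle (-0.68). Coconut oil minus beef tallow was -0.64 for JUP, -0.41 for C1QTNF5, -0.81 for S100B, -1.86 for RBP4 and -0.96 for NID2, against -0.38 for IGF1. These genes were picked by their r with IGF1 in the same pigs, so nothing is read from the shared sign.

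Markers of several other cell types varied with IGF1 across pigs. The mean of 7 fibroblast markers had r = 0.64 with the first IGF1 probe set over the 24 pigs, with 0.64 in gilts and 0.73 in barrows, and 0.54 without the 2 farthest pigs. The mean of 6 adipocyte markers had r = 0.65, with 0.65 in gilts and 0.58 in barrows. The mean of 2 Schwann cell markers had r = 0.60, with 0.71 in gilts and 0.34 in barrows. That of 8 endothelial markers had r = 0.50, with 0.75 in gilts and only 0.10 in barrows. Leukocyte markers had 0.28 and muscle fibre markers -0.16. Deviations from the group means gave 0.61 for fibroblast, 0.475 for adipocyte, 0.42 for Schwann cell and 0.21 for endothelial markers. The Schwann cell markers include S100B, named above among the genes most like IGF1, so these 2 results are not separate. On the second probe set r was 0.56 for Schwann cell, 0.52 for adipocyte, 0.42 for endothelial and 0.28 for fibroblast markers. In this order, r was 0.48, 0.56, 0.66 and 0.32 in gilts and 0.61, 0.40, 0.11 and 0.28 in barrows. Deviations from the group means gave 0.50, 0.36, 0.23 and 0.07. For coconut oil minus beef tallow 5 of the 7 fibroblast markers fell (COL1A2, DCN, POSTN, THY1 and FBN1) and 1 of the 6 adipocyte markers (FABP4). Their medians were -0.71 and -1.12, and 1 fibroblast marker was higher in value with coconut oil. Of all tested probe sets 0.861% were called lower. The marker lists were chosen with earlier results of these data known, so nothing is read from these shares. The Schwann cell markers had a median of -0.86 and the endothelial markers one of -0.24, with 0 of 2 and 0 of 8 called. Over all probe sets this comparison had 0 calls without pig 6, 8, 16 or 21 and with an additive model of fat plus sex. The summed fibroblast signal ran from 20982 to 28488 with coconut oil and from 26189 to 68334 with beef tallow, and the summed adipocyte signal from 6385 to 11546 and from 8167 to 38575. The part of these cell types in the IGF1 values was not tested.

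**Figure D5:**
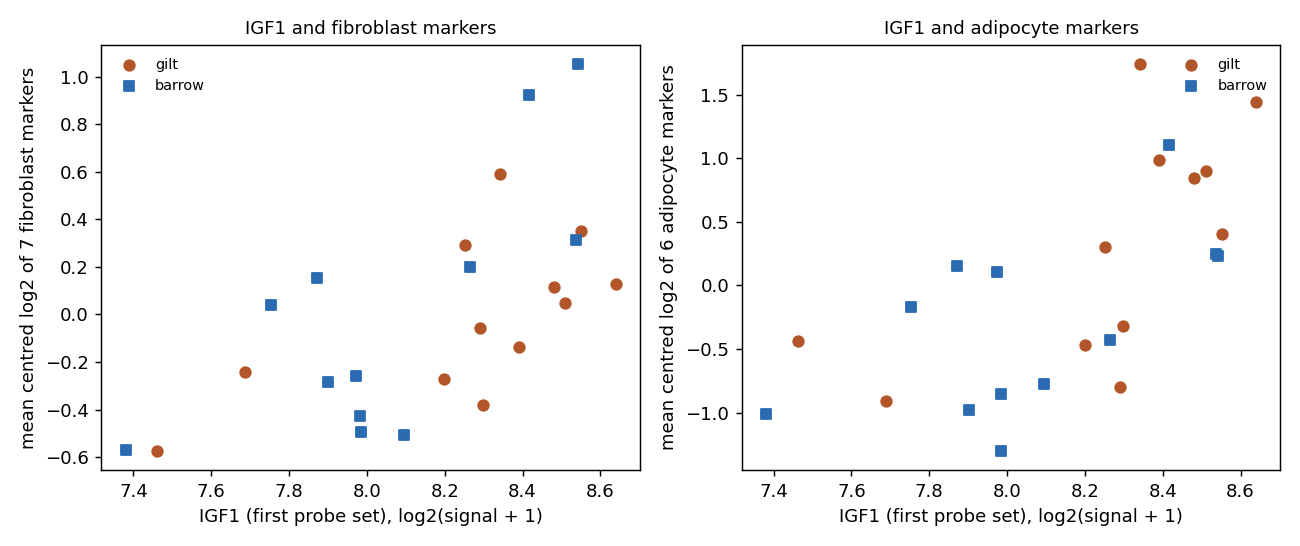
Log2 signal of IGF1 (first probe set, x axis) against the mean log2 level, centred over the 24 pigs, of 7 fibroblast markers (left) and 6 adipocyte markers (right); circles are gilts and squares barrows. Pigs with high IGF1 have high marker levels in both panels (r = 0.64 and 0.65).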

How the data were processed

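Total RNA was measured on a 1-colour Affymetrix array, 1 per pig, labelled with biotin, per the labels' protocols. The deposited values are linear probe set intensities; the algorithm and the scaling are not given in the sources used here. On the values, the mean after trimming 2% at each end was between 500.1 and 500.2 on every array. Array precision is limited by the number of pigs.

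Here log2(signal + 1) was modelled on all 24 arrays as 8 means of fat and sex by limma (version 3.58.1, R version 4.3.3; functions lmFit and eBayes), two-sided, with Benjamini-Hochberg adjustment over the 14399 tested probe sets. Member differences and SE came from the same model on all 23999 probe sets. The code was tested on simulated data. A list gene was read from its highest-mean probe set; symbols came from the platform annotation, with current names from RefSeq (Sscrofa11.1). The members and lists were chosen with earlier results of these data known. Named were fixed partners, list genes past the threshold (otherwise the smallest p), and the 5 highest and 3 lowest r per member. Control probe sets were left out. Other filters, scalings, pseudocounts, models and pig sets were tried.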

Additional observations from a re-analysis of the deposited data

Results flagged for a closer look

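One value stood apart from its group. In the 24 combinations of the 6 probe sets of IGF1, EGF and MYF6 with the 4 fats, 1 pig lay farther from its nearest neighbour than Dixon's limit of 0.625 of the group's range; chance flags about 1 in 20 such groups. It was the MYF6 probe set below the filter, with olive oil, where gilt 12 read 39.7 and the next pig 8.28, a gap of 0.652 of the range (n = 6). All 6 pigs lay below the filter signal of 86.3.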

How the results depend on the processing

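The difference between the sexes kept its sign for EGF and MYF6 in every setting. It was 1.80 to 1.91 and 0.81 to 1.07 over the other scalings, pseudocount and model and without pigs 11, 12 and 16. Without 1 pig it was 1.74 to 1.97 and 0.88 to 1.22. Both genes were proposed as genes that differ between the sexes, so no support is read from the kept sign. On the first IGF1 probe set the difference of coconut oil minus beef tallow lay between -0.53 and -0.25. No member difference moved by more than its residual SD (0.33 to 1.03 over the probe sets). This limit is wider than most of the differences between fats, so no stability is read from it. Smaller member differences between fats changed sign in some of these fits, for example EGF between olive and coconut oil (9 of 29).

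Counts of called probe sets depended on the pigs. For coconut oil minus beef tallow 161 were called as reported, 6 with no filter, 279 with the filter at the 60th percentile, 53 after quantile normalization, 0 with the additive model of fat plus sex and 260 without pigs 11, 12 and 16, and 0 (without pig 6, 8, 16 or 21) to 664 (without pig 12) without 1 pig. For barrow minus gilt 687 were called, 302 with no filter, 416 without pigs 11, 12 and 16, and 386 (without pig 14) to 1057 (without pig 7) without 1 pig. Olive oil minus coconut oil had 2 with no filter and 0 to 1 without 1 pig; soybean oil minus coconut oil had 3 with no filter, 3 without pigs 11, 12 and 16 and 0 to 4 without 1 pig. Without 1 pig, olive oil minus beef tallow had 0 to 7, soybean oil minus beef tallow 0 to 1, soybean oil minus olive oil 0 to 1 and the interaction 0 to 2.

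In the IGF list coconut oil minus beef tallow had 1 call with the filter at the 60th percentile and 0 to 1 without 1 pig, and barrow minus gilt 0 to 1. In the EGF family list coconut oil minus beef tallow had 1 call with the filter at the 60th percentile, 1 with each array centred on its median and 0 to 1 without 1 pig. There barrow minus gilt had 2 calls with the filter at the 60th percentile and 1 to 3 without 1 pig (2 without pig 2 or 16, 3 without pig 7). PTPN1 passed in 31 of 31 settings. The myogenic list had, for coconut oil minus beef tallow, 0 calls with no filter, 2 at the 60th percentile, 0 after quantile normalization, 0 with the additive model and 0 to 4 without 1 pig (4 without pig 12), and 0 to 1 for olive oil minus beef tallow. The other growth factors had 0 to 1 for coconut oil minus beef tallow and 0 to 2 for barrow minus gilt without 1 pig. The cause of these changes was not tested. Centring each array on its median moved the median difference of coconut oil minus beef tallow by 0.13, and the share of calls that were lower from 77.0% to 38.4% there and from 52.5% to 37.9% for barrow minus gilt. No paired analysis was possible because the running numbers of the pigs are unique and no group shares them.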

Other observations

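Other growth factors of muscle were measured with the same fit. Of 39 listed genes, 26 were on the array and 17 tested, and 0 of the 17 passed in any of the 7 comparisons (limma), beside 4.77% of all tested probe sets for barrow minus gilt, 1.12% between coconut oil and beef tallow and 0.00% in the other 5 pairs of fats. At an unadjusted p under 0.05 there were 4 for barrow minus gilt and 3 for coconut oil minus beef tallow, beside 21.1% and 19.8% of all tested probe sets. TGFB2, a growth factor of the TGF-beta family, differed by 0.75 ± 0.26 for barrow minus gilt, and 11 of 12 barrows lay above the mean of the gilts (limma adjusted p = 0.101). Its signal ran from 190 over a median of 342 to 1210 in gilts and from 304 over 720 to 1213 in barrows. IL15, a cytokine made by muscle, differed by -0.33 ± 0.12 (limma adjusted p = 0.124).

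MSTN, myostatin, which limits muscle growth, differed by 0.29 ± 0.20 for barrow minus gilt, and FST, follistatin, which binds myostatin, by -0.01 ± 0.18 (limma adjusted p = 0.430 and 0.985). FGF2, a fibroblast growth factor, had -0.80 ± 0.23 and its receptor FGFR1 -0.56 ± 0.19 for coconut oil minus beef tallow (limma adjusted p = 0.0696 and 0.107), and 0 of the 6 coconut oil pigs exceeded the beef tallow mean for either gene.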
